A study of Mus musculus with 4 samples.

Results

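The tumour described here was an allograft of iNRAS-475, a mouse melanoma cell line in which NRAS is switched on by doxycycline, taken while its host was still given the drug. It was chosen by its label of being kept on doxycycline and is 1 of the 4 arrays of the series; the other 3 followed 24, 48 and 72 h of withdrawal and are not compared with it. The cells had been injected into the dermis of nude mice, which drank water with 2 mg/ml doxycycline for 6 weeks, until tumours measured 200 to 500 mm3. Skin was trimmed away, about 50 mg of tumour tissue was frozen, and biotin-labelled cRNA from 10 ug of total RNA was hybridised to an Affymetrix mouse array. The labels give neither the species, allele or promoter of the inducible NRAS nor whether the line is a single clone, and nude mice lack a thymus and so most T cells. With 1 array there is no replicate, so no value has an SD and no test was possible, and the precision of everything given here is limited by the number of arrays. The piece held tumour and host cells together, and in such a bulk sample fewer cells of a type and less RNA per cell cannot be told apart.

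NRAS is a small GTPase that passes growth signals to the RAF, MEK and ERK kinases, and it is mutated in a large class of human melanomas. Melanocytes arise from the neural crest, the embryonic cell population that also gives the Schwann cells of nerves. A melanoma can keep the pigment programme driven by the transcription factor MITF, or can lose it and show neural crest and mesenchymal genes instead, so these genes are the usual description of a melanoma's state.

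Brightness was ranked over 18193 genes, each represented by its brightest probe set. Intensities are given as deposited, on a linear scale, and ran from 7.22 to 18310.5 with a median of 60.9. A gene was placed in the top decile when it was among the brightest 10% (an intensity of at least 376). It was called above the background level when its intensity exceeded 113, the 95th percentile of 80 genes of liver, retina, pancreas, testis, kidney, gut and lung. By these rules 1819 genes, or 10%, were in the top decile, and 6168, or 33.9%, were above the background level. Counts for every list are to be read against these shares of all genes. The lists and their members were chosen with earlier results of these data known. A count above or below these shares is therefore a description of this array and not independent support. At the edge of the top decile stood Txnip, inside at 375.60, and the feedback inhibitor Spry2, outside at 375.45; at the edge of the background level stood Mex3d, above at 112.83, and Trem2, not above at 112.81.

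A brightness depends on how well a probe set binds as well as on the RNA, so the position of a gene is a property of this array and the intensities of 2 genes do not order their mRNA. Among the 9010 genes with several probe sets the brightest was a median of 3.34 times the dimmest, and for 1689 genes it was at least 10 times the dimmest. A dark probe set does not show that a gene is silent: of 44 ribosomal proteins, made by every growing cell, 4 were not above the background level, Rps16 at 14.8, Rpl14 at 23.2, Rps6 at 58.8 and Rpl12 at 65.8. For genes that the results turn on, other probe sets of the same gene are given beside the brightest. The 5 brightest of the 80 other-tissue genes were the pancreatic Prss2 (139.8) and Cela3b (122), the liver and choroid plexus gene Ttr (139), the testis gene Gapdhs (129) and the lung gene Sftpb (112), and 4 of the 80 were above the level.

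Outside protein synthesis and the cytoskeleton, the brightest genes encoded secreted and matrix proteins, IGF binding proteins and cyclin D1. The brightest gene of all was Lgals1, galectin 1, listed with the cytoskeleton genes, at 18310.5 with its other probe set at 17384. Of the 40 brightest genes 30 fell in the lists used here as housekeeping (protein synthesis, energy metabolism, chaperones and the cytoskeleton), among them the elongation factor Eef1a1 (18019), beta-actin Actb (13968) and the intermediate filament vimentin, Vim (13853, with others at 4851 and 4095). Those lists also hold genes whose level depends on the cell type: vimentin and galectin 1 are both typical of mesenchymal cells.

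With those lists left out, Igfbp7, a secreted IGF binding protein, came first with a reading of 11395 on 1 probe set and of 106 and 94.5 on the other pair. It was followed by Ccnd1, which encodes cyclin D1 and drives the exit from G1, at 9864, with others at 5233 and 2339. Then came fibronectin, Fn1 (9260.4, other 147), the matrix protein Sparc (8491, others 7644 and 224), the lipocalin Apod (7925, other 31.1), the metalloprotease inhibitor Timp1 (7705) and the binding protein Igfbp4, whose 6 probe sets lay between 1178 and 7474. All 3 probe sets of Ccnd1 and all 6 of Igfbp4 stood far above the background level, whereas Igfbp7 rests on 1 of 3 and Apod on 1 of 2.

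Next in the ranking were the ferritin heavy chain Fth1 (6853, other 2942), Dlk1, a Notch-related fetal protein (6791, other 31.2), the glutathione transferase Gstp1 (6327), Igfbp3 (6199, other 4114) and the matrix Gla protein Mgp (6144). The calcium-binding proteins S100a4 (5542) and S100a6 (5243), the cathepsin Ctsb (5826), the cGMP-dependent kinase Prkg2 (5274, others 3707 and 351) and the tetraspanin-like Tm4sf1 (4868, others 238 and 48.4) were also among the 30 brightest. Sox10, a transcription factor of neural crest and melanocytes, was the only lineage transcription factor among these 30, at 3771. Of the 181 genes in the brightest 1% (0.995% of all genes), 108 belonged to a list described here and 73 to none.

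**Figure D1:**
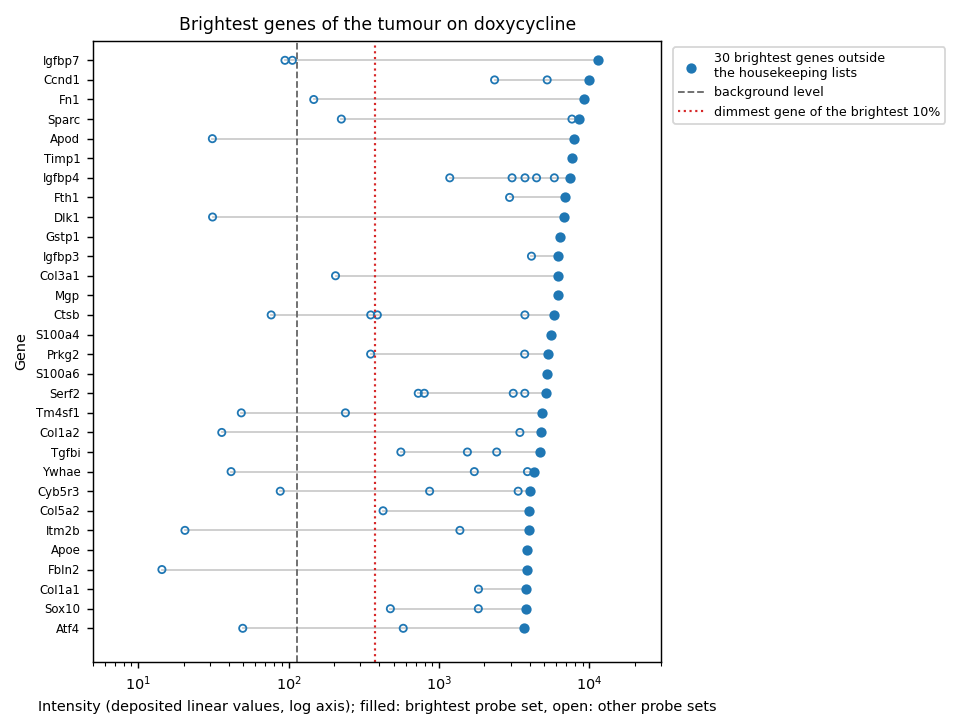
Intensity on a log axis of the 30 brightest genes outside the housekeeping lists on the array of the tumour on doxycycline; filled points are the brightest probe set of a gene, open points its others, and the lines mark the background level (113) and the dimmest gene of the top decile (376). The brightest probe sets run from 11395 for Igfbp7 to 3660.2 for Atf4. Other probe sets of several genes, among them Igfbp7, Apod, Dlk1 and Fbln2, lie below the background level.

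The pigment programme was dark on this array. Of 15 pigment genes measured, 3 were above the background level and 0 were in the top decile, against 33.9% and 10% of all genes. The 3 were genes of melanosome transport and maturation that other cells also use: melanophilin, Mlph (204, other 20.7), myosin Va, Myo5a (148, others 77.6 and 19.9), and Rab38 (141, other 24.8). The enzymes of melanin synthesis were all dark: tyrosinase, Tyr, was at 24.5 with others at 21.9 and 8.81, Tyrp1 at 17.9 with others at 15.5 and 11.7, and Dct at 34.7. The melanosome proteins Pmel (73.1) and Mlana (22.96), the transporters Slc45a2 (83.8) and Oca2 (18.6), and the melanocortin receptor Mc1r (82.8) were also not above the background level. The same held for Gpnmb (47.2), Gpr143 (39.0), Trpm1 (36.4) and Rab27a (33.1). Of the defining pigment markers of the labelled tumour type, Tyr, Tyrp1, Dct, Pmel and Mlana, 0 of 5 were above the background level. With the 40th percentile of probe sets (24.7) as the level, 11 of the 15 pigment genes and 13638 of all 18193 genes were above it.

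MITF activates pigment genes through the M-box, a 7-base element, TCATGTG, that contains the E-box CATGTG. The promoters of the 3 melanin enzymes are shown because all 3 hold this element. Sequences and positions are from RefSeq (GRCm38.p6), end at most at the base before the gene start, and have the element in capitals.
Tyr (chr7:87493513-87493594, minus strand): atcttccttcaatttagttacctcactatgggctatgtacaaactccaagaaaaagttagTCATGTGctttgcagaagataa
Tyrp1 (chr4:80834106-80834212, plus strand): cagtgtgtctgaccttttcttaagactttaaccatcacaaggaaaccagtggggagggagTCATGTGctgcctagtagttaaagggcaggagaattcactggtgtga
Dct (chr14:118052331-118052457, minus strand): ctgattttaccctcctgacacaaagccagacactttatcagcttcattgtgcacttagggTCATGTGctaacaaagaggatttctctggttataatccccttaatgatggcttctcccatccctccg
The element begins 22, 47 and 151 bases before the start of Tyr, Tyrp1 and Dct, and Dct has another on the opposite strand, 232 bases before the start. Searched on both strands from 250 bases before to 50 after the gene start, it was present for 5 of the 10 pigment genes with a promoter in the table (Trpm1 and Mc1r are the others) and for 4.31% of all 27025 genes with one, or in 3.77% of all 32851 promoters. Trpm1 holds it in 1 of its 2 promoters. A match is a description of the sequence and not a measured binding site. Whether the level of Mitf bears on the level of these genes was not tested.

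Among 20 transcription factors of melanocytes and the neural crest, Sox10 was bright and Mitf was dark. Sox10, which specifies melanocytes and Schwann cells, read 3771, 1824 and 475 on its 3 probe sets, each in the range of top decile genes. Mitf read 50.3 and 11.6, and Pax3, which acts with Sox10 on Mitf, 77.1, 70.1 and 32.5, all below the background level. In this list 12 of 20 genes were above the background level and 3 in the top decile, against 33.9% and 10% of all genes. Besides Sox10, those in the top decile were the epithelial-mesenchymal transition factor Zeb1 (562, others 85.2 or less) and Tfap2a (397, others 320 and 182).

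The related snail factors Snai1 (370, just outside the top decile) and Snai2 (180, other 32.0) were above the background level, as were the MITF relatives Tfeb (349) and Tfe3 (303), Ets1 (254), Msx1 (222), Sox5 (141), Foxd3 (140) and Twist1 (138). Zeb2 (93.0), which favours the melanocyte state where Zeb1 opposes it, was not, nor were Twist2 (81.4), Lef1 (76.8), Tfap2b (55.0), Sox2 (43.1) and Sox9 (24.5).

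Neural crest, Schwann and dedifferentiation genes had the highest median of the lineage lists. Of 23 measured, 19 were above the background level and 14 in the top decile, against 33.9% and 10% of all genes. Their median intensity was 667 where that of all genes was 60.9. Ngfr, the nerve growth factor receptor CD271 and a mark of neural crest-like melanoma cells, read 2228, 422 and 151. Nes, nestin, an intermediate filament of progenitors, read 3637, but its others were at 178 and 26.1. Axl, a receptor kinase of melanomas with low MITF, read 3138, but its other probe set was at 9.08, so its position rests on 1 of 2. Nt5e, the ectonucleotidase CD73, read 2434, 942 and 39.5.

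Several members are also Schwann cell genes. Erbb3, the neuregulin receptor, was at 1464 (other 59.7), the cadherin Cdh19 at 691, Gfra1, the GDNF coreceptor, at 879 (others 392 and 132), Gfra3 at 181 and S100b at 362 (other 309.9). The matrix protein tenascin C, Tnc (1284, other 37.2), and the hyaluronan receptor Cd44 (1007 and 921 on the brighter pair) were in the top decile as well. So were the water channel Aqp1 (667), the adhesion molecules L1cam (462) and Ncam1 (400.1), S100a4 and S100a6. Nrcam (298), Cdh2 (210.0) and Kdm5b (166) lay between the thresholds, and Gfra2 (96.1), Rxrg (90.6), Wnt5a (31.2) and Prom1 (15.3) were not above the background level. The labels do not say whether tumour cells or the nerves and stroma of the host gave these signals.

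Of 7 oncofetal genes, active in embryonic and many tumour cells, Dlk1 (6791) and the chromatin protein Hmga2 (3591, second probe set 1949.9) were in the brightest 1%. The RNA-binding protein Igf2bp3 (150.4, next 40.6) was above the background level, and Igf2bp1 (107), Igf2 (58.8), Lin28a (15.9) and Lin28b (7.87) were not. In all, 3 of the 7 were above it, against 33.9% of all genes.

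**Figure D2:**
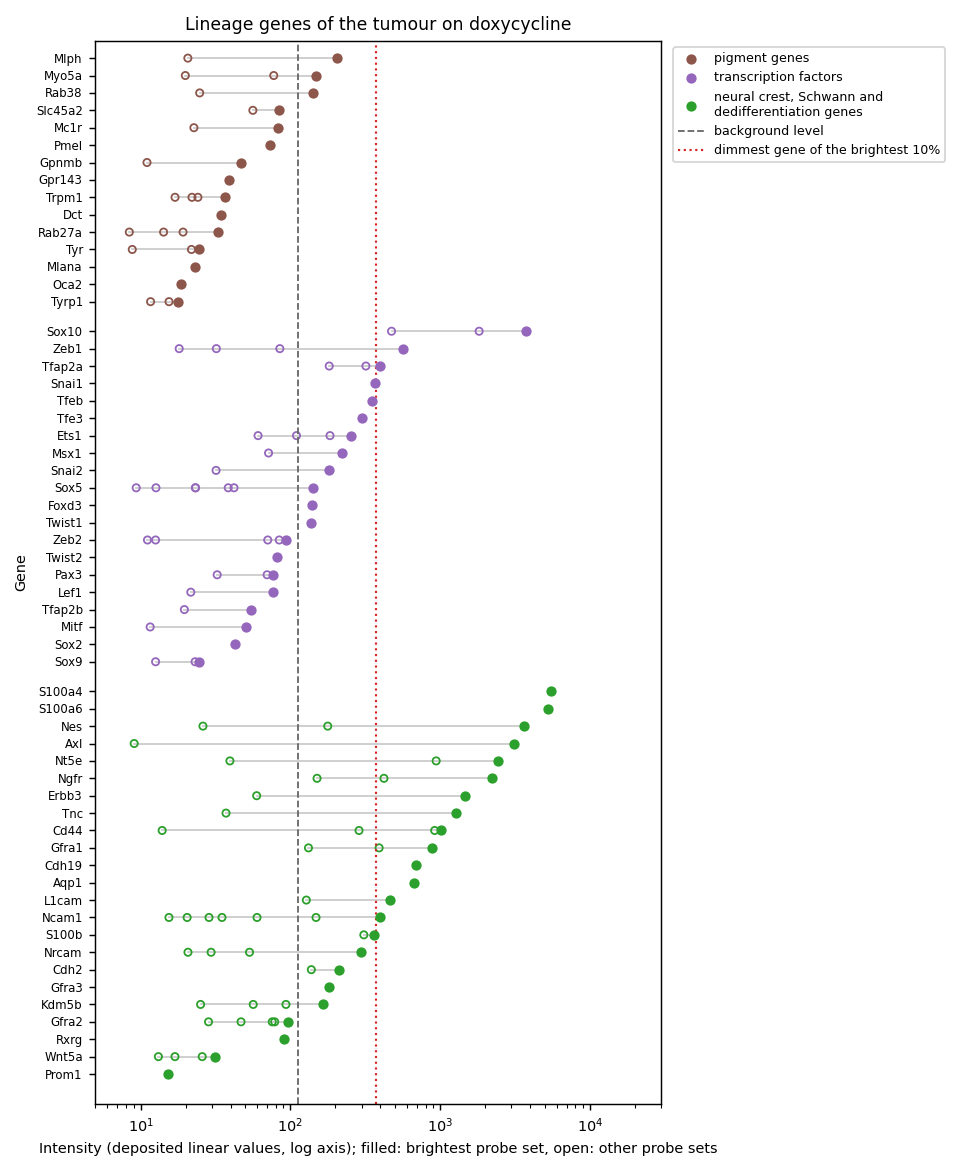
Intensity on a log axis of pigment genes, lineage transcription factors, and neural crest, Schwann and dedifferentiation genes on the array of the tumour on doxycycline; filled points are the brightest probe set of a gene and open points its others. The pigment genes lie at or below 204, while Sox10 (3771) and 14 genes of the third group lie beyond the dimmest gene of the top decile (376).

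The mouse Nras probe sets were of moderate brightness. They read 163, 86.2 and 72.9, so 1 of 3 was above the background level. Whether these probe sets also report on the inducible NRAS, whose sequence is not in the labels, was not tested. Of the 15 RAS to ERK pathway genes measured, 14 were above the background level and 7 in the top decile, against 33.9% and 10% of all genes. The 7 were the RAS relatives Rras (814), Mras (536) and Rras2 (407), the phosphatase Ptpn11 (651, others 49.3 and 20.9), the MEK genes Map2k1 (596) and Map2k2 (391), and the adaptor Grb2 (463).

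Shoc2 (189.9), the kinases Araf (162) and Braf (144, its 8 others at 64.2 or less), the exchange factor Sos1 (115) and the RAS-inactivating proteins Rasa1 (155) and Nf1 (154) lay between the thresholds, and the scaffold Ksr1 (99.1) was not above the background level.

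Genes that ERK activity induces were mostly above the background level. This held for 21 of 25, and 10 were in the top decile, against 33.9% and 10% of all genes. After Ccnd1 came Ier3, an early response survival gene (1732), Dusp6, the phosphatase that switches ERK off (1706), Hbegf, a ligand of the EGF receptor (1696, other 881), and Dusp4, another ERK phosphatase (1303). The immediate early transcription factors Egr1 (934) and Fos (456), Phlda1 (825), the urokinase receptor Plaur (403) and the ETS factor Etv4 (376, other 24.5) were the remaining members of the top decile.

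Of the sprouty and SPRED inhibitors of RAS signalling, 5 of the 6 measured lay between the thresholds. They were Spry2 at 375 (other 29.7), Spred2 at 316 (next 105), Spred1 at 305 (next 273), Spry4 and Spry1. Spry4 was at 231 (next 36.7) and Spry1 at 226. Between the thresholds also lay Dusp5 (314), Egr2 (270.4, other 47.2), Fosl1 (244, other 54.0) and the cytokine Lif (159.9, other 28.6). So did Ereg (147) and Etv5 (133, others 100.6 and 55.6). Myc (111), Epha4 (83.7), Spred3 (60.01) and Epha2 (53.0) were not above the background level, Myc by a small margin.

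**Figure D3:**
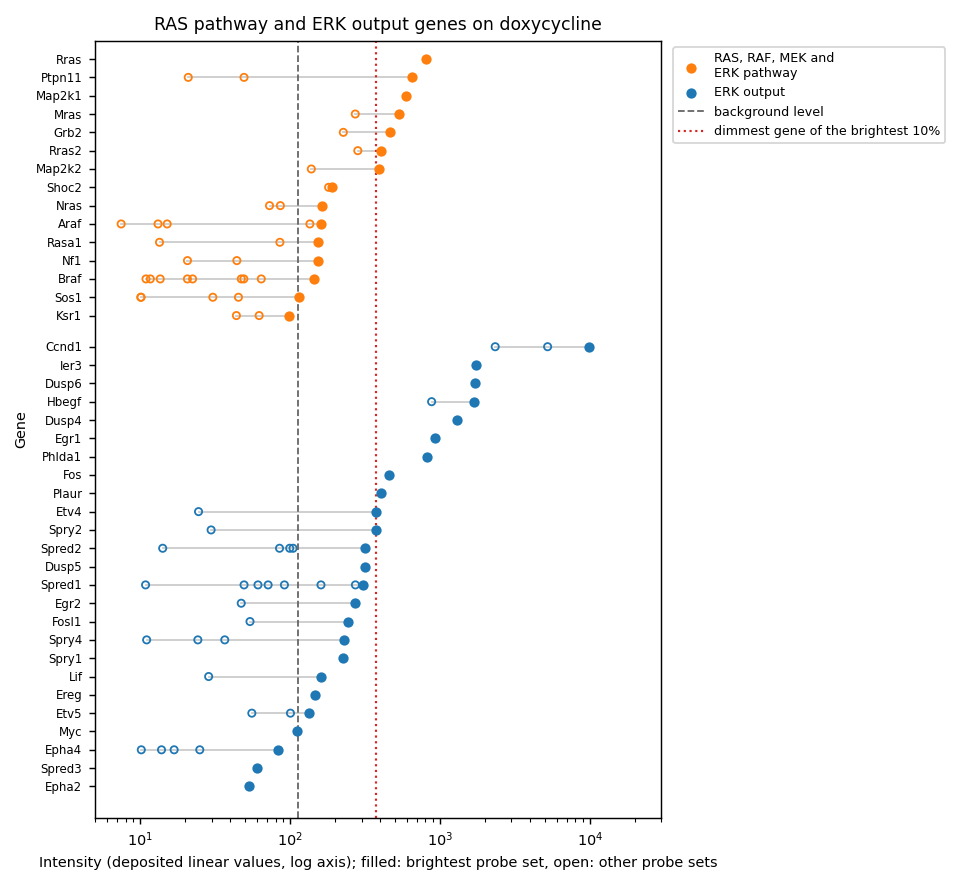
Intensity on a log axis of RAS, RAF, MEK and ERK pathway genes and of ERK output genes on the array of the tumour on doxycycline; filled points are the brightest probe set of a gene and open points its others. Ccnd1 has all 3 probe sets at 2339 or more, the 3 mouse Nras probe sets lie between 72.9 and 163, and 4 ERK output genes have no probe set above the background level (113).

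Of 11 cyclins and cyclin-dependent kinases 8 were above the background level and 5 in the top decile, against 33.9% and 10% of all genes. Besides Ccnd1, the D cyclins Ccnd2 (651, next 433) and Ccnd3 (562) and the kinase Cdk4 (950.5, 355 and 336 on its 3 probe sets) were in the top decile, as was Cdk1 (387). Cdk6 was at 346, Ccna2 at 165 and the E cyclin Ccne1 at 115, while Cdk2 (73.7), Ccnb2 (60.9) and Ccne2 (10.4) were not above the background level.

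Genes of DNA replication and mitosis had fewer bright members. Of 21 S phase genes 7 were above the background level and 3 in the top decile, the nuclease Fen1 (772, other 22.01), the sliding clamp Pcna (726) and the helicase subunit Mcm7 (396). Of 21 G2/M genes 7 were above the background level and 1, Cdk1, in the top decile. The topoisomerase Top2a was at 183, Prc1 at 164, Cdc20 at 139 and the proliferation marker Mki67 at 135, while Plk1 (72.5), Aurkb (38.0), Bub1 (23.2) and Kif20a (20.4) were not above the background level. These shares, 7 of 21 in both lists, were close to the 33.9% of all genes.

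Of 12 tumour suppressor and checkpoint genes, the cell cycle inhibitors Cdkn1a (p21, 997, other 103) and Cdkn2b (p15, 699) were in the top decile. Cdkn2a, which encodes p16 and ARF and lies next to Cdkn2b, was at 21.1. Published mouse models of doxycycline-inducible NRAS melanoma carry a loss of Ink4a/Arf, but the labels do not give the genotype of this line, and the single probe set does not settle it. The merlin gene Nf2 (284), the p53 antagonist Mdm2 (260.0), Stk11 (192) and Cdkn2c (152) were above the background level. Cdkn2d (106), Cdkn1b (99.4), Mdm4 (89.9), the retinoblastoma gene Rb1 (36.8, other 9.79) and Cdkn1c (23.7) were not.

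Of 14 BCL2 family genes 7 were above the background level and 2 in the top decile, against 33.9% and 10% of all genes. Bax was not measured. Mcl1 read between 168 and 461 on 6 probe sets, all above the background level, and Bcl2l1, which encodes BCL-XL, read 439, 264, 115 and 18.1. Bcl2l11, which encodes BIM, read 367 and 290.1 on the brighter pair, just short of the top decile (376). Bcl2l2 (235), Bad (147), Bcl2 (135) and Bok (131) were above the background level. Bik (54.6), Pmaip1 (47.3) and Bid (35.4) were not.

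Of 30 receptor tyrosine kinases 12 were above the background level and 5 in the top decile, against 33.9% and 10% of all genes: Axl, Erbb3, the IGF1 receptor Igf1r (798, next 201), the collagen receptor Ddr1 (433) and Pdgfra (404). Pdgfrb (357), Fgfr1 (284), Ddr2 (253) and Egfr (184, next 73.7) lay between the thresholds. Kit, the receptor that normal melanocytes need (47.9), Met (26.1), Alk (25.8), Ros1 (19.5) and Erbb4 (9.22) were not above the background level.

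Of 34 growth factor ligands 15 were above the background level and 5 in the top decile, with the same shares of all genes to compare: Hbegf, Tgfb1 (666, other 40.2), the EGF family member Btc (519.6, other 34.5), the PDGF chain Pdgfa (471, other 418) and the AXL ligand Gas6 (436, other 29.2). Pdgfd (13.8), Nrg1 (11.5) and Fgf2 (9.59) were the dimmest. Of 20 textbook pairs of receptor and ligand, written down after the values had been seen, both partners were above the background level in 11. They included Axl with Gas6 and with Pros1 (341), Gfra1 with Gdnf (317), Igf1r with Igf1 (139.8), Pdgfra with Pdgfa, and Csf1r (708), the macrophage growth factor receptor, with Csf1 (134). Erbb3 was bright while its ligand Nrg1 was at 11.5, and Gdnf and Kitl (123) were above the background level while their receptors Ret (67.4) and Kit were not.

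Matrix, protease and adhesion genes held some of the brightest members of the array. Of 24 fibroblast and matrix genes 21 were above the background level and 18 in the top decile, against 33.9% and 10% of all genes. The median of the list was 1020. After Fn1 and Sparc came the fibrillar collagens Col3a1 (6197, other 205), Col1a2 (4728.5, 3445 and 35.9), Col5a2 (3959.8, other 424) and Col1a1 (3797, other 1828), and the fibulin Fbln2 (3816, other 14.4). Of the remaining members that are not collagens, Thy1 (1445), Postn (781), Mfap5 (773, other 312), Pdgfra (404) and decorin, Dcn (394, other 30.1), were in the top decile. Lumican, Lum (319), Fap (281) and Pi16 (126, other 22.6) lay between the thresholds. Dpt (105), Fmod (99.4) and Ogn (32.8) were not above the background level. Melanoma cells can make many of these matrix proteins, so the list does not mark fibroblasts alone.

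Against 33.9% and 10% of all genes, 16 of 19 proteases and inhibitors were above the background level and 14 in the top decile. Besides Timp1 these included Timp3 (3125, 1607, 559.6 and 335), Timp2 (3033), the cathepsins Ctsd (3476) and Ctsl (2779, other 25.8), the gelatinase Mmp2 (2114, other 1755), the membrane protease Mmp14 (1968) and the tissue plasminogen activator Plat (1382, other 21.9). The urokinase gene Plau (33.3), Mmp3 (47.6) and Mmp12 (12.8) were not above the background level, although the receptor of urokinase, Plaur, was in the top decile. Of 6 IGF binding proteins 5 were above the background level and Igfbp2 (35.8) was not, with Igfbp5 at 744 and Igfbp6 at 311.5.

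Among 19 integrin and laminin genes 11 were above the background level and 9 in the top decile, against 33.9% and 10% of all genes. The integrin chains Itgb1 (2232 and 2166 on the brighter pair of 6), Itgb5 (1484), Itga6 (1096) and Itgav (955) were the brightest, and the laminin chains Lama4 (629), Lamb1 (613) and Lamc1 (478) were also in the top decile. Itga2 (24.1), Itga1 (23.1) and Lama1 (16.6) were the dimmest.

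Ribosomal proteins, translation factors and respiratory subunits were bright. The top decile held 10% of all genes. In it were 37 of 44 ribosomal proteins, 28 of 29 translation factors and 30 of 37 oxidative phosphorylation subunits. So were 27 of 28 cytoskeleton genes and 23 of 27 chaperones and proteasome subunits. Of the 79 ribosomal proteins listed, 44 were measured. Cox7c, a respiratory subunit, was the only one of its list not above the background level, at 14.7.

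Glycolysis genes were above the background level in 15 of 16 cases and in the top decile in 8, against 33.9% and 10% of all genes. Pgk1 read 8534, 3565 and 379, the pyruvate kinase Pkm 3688, the lactate dehydrogenase Ldha 3408, the aldolase Aldoa 2926 and Hk1, a hexokinase, 985. The glucose carrier Slc2a1 (276, next 146), the lactate exporter Slc16a3 (165) and Hk2 (154) lay between the thresholds. Hypoxia genes had 12 of 16 above the background level and 3 in the top decile, the lipid droplet protein Plin2 (992), the prolyl hydroxylase P4ha1 (667) and Bnip3 (377). Vegfa was at 249, and Adm (74.3), the carbonic anhydrase Car9 (61.4), Egln3 (30.4) and Ankrd37 (27.3) were not above the background level.

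Of 20 genes of the ATF4 and unfolded protein response 18 were above the background level and 10 in the top decile, against 33.9% and 10% of all genes. The transcription factor Atf4 read 3660.2 (others 578 and 49.5), the chaperone Hspa5 3003, and the amino acid enzymes Phgdh and Asns 1046 and 993. Slc7a11, the cystine transporter, was dark at 16.7. Of 18 sterol and fatty acid synthesis genes 12 were above the background level and 5 in the top decile, led by the desaturases Scd2 (1881) and Scd1 (1362, other 28.7); Insig1 was the dimmest at 34.4. Of 17 lysosome genes 15 were above the background level and 12 in the top decile, among them Npc2 (3124), Lamp1 (2993), Psap (2753) and Grn (2243).

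**Figure D4:**
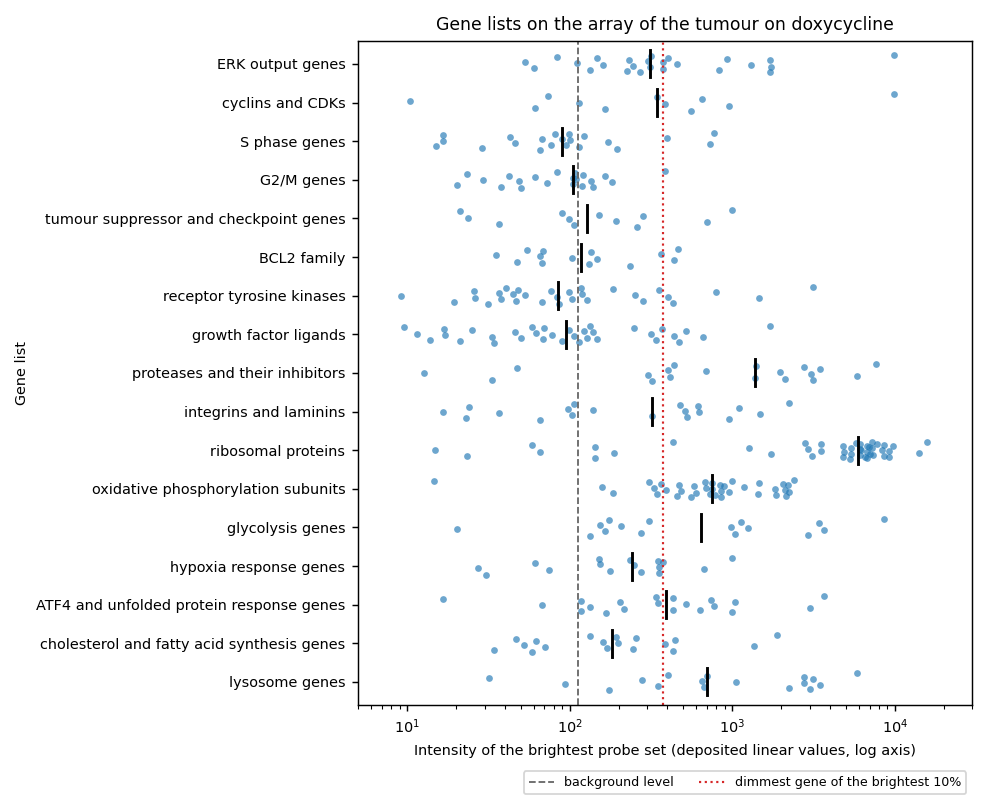
Intensity on a log axis of the members of 17 gene lists on the array of the tumour on doxycycline; each point is a gene by its brightest probe set, the black bar is the median of the list, and the lines mark the background level (113) and the dimmest gene of the top decile (376). The medians of ribosomal proteins (5949.7) and proteases (1382) lie beyond the top decile line, and those of G2/M (104) and S phase genes (90.2) below the background line.

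Macrophage markers had the highest median of the immune cell lists, 177. Of 24 measured, 17 were above the background level and 7 in the top decile, against 33.9% and 10% of all genes. Lyz2, the lysozyme of myeloid cells and a near copy of Lyz1, was at 1641, the complement chains C1qa, C1qc and C1qb at 1606, 789 and 398, the receptor Csf1r at 708 with others at 417 and 223, and the signalling adaptor Tyrobp at 413. Apoe (3857) headed the list but is made by other cells too. The mannose receptor Mrc1 (277), Adgre1, which encodes F4/80 (187), and Cd68 (166) lay between the thresholds. The integrin Itgam (25.2), the pan-leukocyte gene Ptprc (24.6, other 12.7) and Cd163 (22.96) were not above the background level.

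Few markers of lymphoid cells, granulocytes and mast cells were above the background level, set against 33.9% of all genes. Of 13 T cell markers 2 were above it, the kinase Zap70 (218, others 71.4 and 37.1) and Cd3e (137). The other T cell receptor chains Cd3d (68.5), Cd3g (23.6) and Cd247 (38.1), the coreceptors Cd8a (67.5), Cd8b1 (17.4) and Cd4 (62.2), and Cd6 (35.3), Cd5 (22.8), Cd28 (20.2), Foxp3 (16.7) and Cd2 (15.3) were not.

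None of 9 NK cell markers and none of 10 neutrophil markers was above the background level; the highest of each were Gzmb (47.5) and Elane (70.6), and S100a8 was at 19.7. Of 9 B and plasma cell markers 1 was, Ighm (206, next 131), with Cd79a at 43.5 and Ms4a1 at 21.5. Of 10 mast cell markers 1 was, Gata2 (127), while the tryptase Tpsab1 fell just short at 112.4. Of 8 dendritic cell markers 1 was, Flt3 (129), and of all genes 33.9% were.

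Of 16 endothelial markers 4 were above the background level, against 33.9% of all genes. Under other background levels the count ran from 4 to 14, and that of all genes from 5199 to 13638. The 4 were the TGF-beta coreceptor Eng (409.9, other 76.1), the VEGF receptors Flt1 (198, next 142) and Kdr (197), and Egfl7 (149). The junction genes Pecam1 (38.1) and Cdh5 (34.9) and the receptor Tek (12.8) were not. Of 13 pericyte and smooth muscle markers 8 were above it and 4 in the top decile, Mcam (986), Cspg4 (687, other 603), smooth muscle actin Acta2 (462, others 16.5 and 11.1) and Tagln (443). Mcam and Cspg4 are also melanoma antigens. The smooth muscle genes Cnn1 (22.9) and Myh11 (22.1) and the pericyte genes Kcnj8 (22.8) and Higd1b (15.9) were not above the background level.

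Few genes of skin, muscle, fat and blood were above the background level, set against 33.9% of all genes. Of 15 keratinocyte markers 1 was above the background level, Epcam (589, other 72.2), an epithelial adhesion molecule; the keratins Krt5 (78.1), Krt14 (26.8) and Krt10 (26.7) were not. Of 17 skeletal muscle markers 2 were, desmin, Des (142), which pericytes also make, and Tnni2 (138). Of 10 adipocyte markers 2 were, Fabp4 (203, next 44.6) and Car3 (199), while Adipoq was at 64.0 and Lep at 27.2. Of 9 erythroid and platelet markers 1 was, Itga2b (114), and the globin Hba-a1 was at 21.9.

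Of 9 class I antigen presentation genes 5 were above the background level and 3, the chains themselves, in the top decile, against 33.9% and 10% of all genes. B2m, the light chain of class I, was at 3194 (other 1489), and the heavy chains H2-D1 and H2-K1, which are close copies and may share signal, at 1841 and 1381. Of the helpers that load peptides, Tapbp (218) and the immunoproteasome subunit Psmb10 (189) were above the background level, and the peptide transporters Tap1 (72.4) and Tap2 (83.6) and the immunoproteasome subunits Psmb8 (92.1) and Psmb9 (51.3) were not. Of 6 class II genes 3 were above it, the chains H2-Ab1 (414) and H2-Aa (245) and the invariant chain Cd74 (378). The chain H2-Eb1 (48.0), the peptide exchange factor H2-DMa (70.7) and the activator Ciita (27.0) were not.

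Of 19 interferon-stimulated genes 3 were above the background level, Oas1a (152), Ifi35 (149) and Igtp (120), and 0 were in the top decile; Ifit1 was at 24.6, Usp18 at 20.1 and Mx1 at 16.1. Of 10 immune checkpoint genes 4 were above it, against 33.9% of all genes: Nt5e, the phagocytosis inhibitor Cd47 (440.0, next 257), Cd276 (247) and Pvr (193). Cd274, which encodes PD-L1, was at 40.5 and Ido1 at 18.3.

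**Figure D5:**
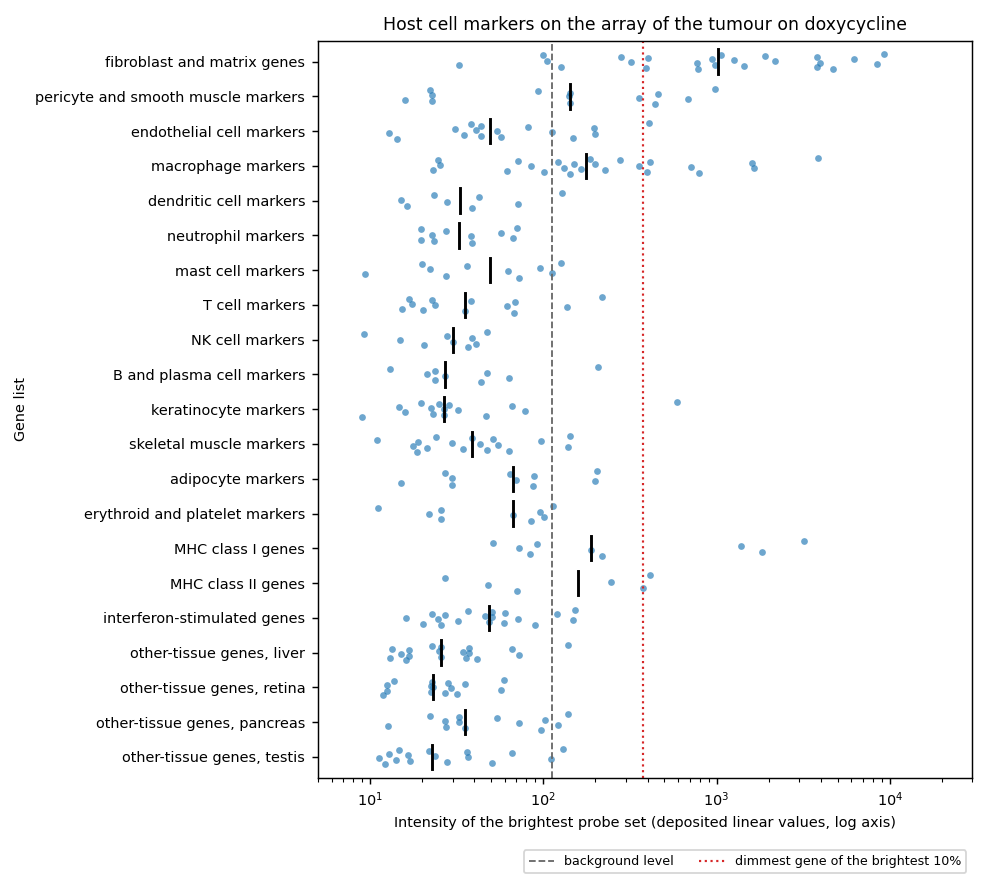
Intensity on a log axis of host cell markers, antigen presentation and interferon genes and 4 of the 5 other-tissue lists on the array of the tumour on doxycycline; each point is a gene by its brightest probe set, the black bar is the median of the list, and the lines mark the background level (113) and the dimmest gene of the top decile (376). The medians of matrix (1020) and macrophage (177) lists lie above the background line, and those of NK cell (30.03), neutrophil (32.8) and T cell (35.3) lists lie among those of the other-tissue lists.

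Of 5 sex-linked genes measured, Xist, the RNA that silences an X chromosome in female cells, was above the background level at 194, with others at 96.1 and 19.3. Its antisense partner Tsix was at 13.2. The Y-linked genes Uty (46.1), Eif2s3y (27.8) and Kdm5d (24.9) were not above the background level. The labels do not give the sex of the line or the host.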

How the data were processed

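RNA was measured on 1 array per condition, and the array of the tumour kept on doxycycline was used. The authors deposited 1 linear intensity per probe set; MAS5 and RMA are named in the submitters' processing notes, but which of them made the values, and the scaling, are not given in the sources used here. Nothing was normalized further. On this array 33.9% of the 45037 probe sets shared their exact value with another, and tied genes took their mean rank.

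Symbols came from the platform annotation and were looked up by gene ID in RefSeq's table (GRCm38.p6), which changed none. The 34945 probe sets with exactly 1 symbol were used; 932 carried several and 9160 were not listed.

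Members and lists were chosen with earlier results of these data known. Of 864 listed genes 757 were measured, and the rest are not analysed here. Genes were named from a rule: the 40 brightest; the 30 brightest outside housekeeping lists; the 5 brightest and 3 dimmest of each list; and all of the lineage, RAS, suppressor, T cell and sex-linked lists. Other names were chosen after their values were seen, among them further members of the neural crest, matrix, macrophage and ERK lists. Alternatives were the mean over probe sets, the probe set brightest over 4 arrays, probe sets with _x_at or _s_at left out, those with several symbols, 3 other background levels, and the brightest 5% or 25%. The ranking was checked on simulated data. Python 3.11.15, pandas 2.3.3, NumPy 2.4.6 and Matplotlib 3.10.9 were used.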

Additional observations from a re-analysis of the deposited data

How the results depend on the processing

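No paired analysis was possible because each condition has 1 array and no test was made. With the background level taken from 70 olfactory and vomeronasal receptor genes (50.9), 9915 of 18193 genes were above it, and with the 40th percentile of probe sets (24.7), 13638, in place of 6168. In the same order, pigment genes above it were 6 and 11 of 15, interferon-stimulated genes 7 and 15 of 19, and endothelial markers 8 and 14 of 16. T cell markers were 5 and 7 of 13 and keratinocyte markers 3 and 9 of 15. At the second level 19 of the 20 lineage transcription factors were above it. There the pigment share was close to that of all genes, and the interferon-stimulated and endothelial shares were higher. The low shares of these lists therefore did not hold at the second level. With the highest other-tissue gene as the level (139.8) 1 T cell marker was above it. With the mean over probe sets 1 pigment gene was above the level, and without _x_at and _s_at probe sets 0 keratinocyte markers were and 1 S phase gene was in the top decile. With probe sets of several symbols added, 0 G2/M genes were in the top decile. Among the brightest 25% of genes were 18 ERK output, 13 macrophage, 5 S phase and 3 G2/M genes, and among the brightest 5% 0 G2/M genes. Counts of the neural crest and of the matrix list stayed within 1.5 times under every alternative run. With the mean over probe sets 25 of 448 named genes changed side of the top decile and 34 of the background level. The probe set brightest over 4 arrays changed neither for any of them. Depth has no counterpart on an array: a gene below the background level is not shown to be silent.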

Other observations

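Gene families found by their symbols, and picked after values had been seen, are given with their counts, to be read against the 33.9% of all genes above the background level and the 10% in the top decile. Of 33 chemokine ligands 10 were above the background level and 3 in the top decile, Cxcl14 (1095), the monocyte attractant Ccl8 (861) and the neutrophil attractant Cxcl1 (391), while of 16 chemokine receptors 1 was above it, Ccr2 (169). Of 28 interleukins, receptors left out, 1 was, the alarmin Il33 (581). Of 20 semaphorins, axon guidance proteins, 8 were above it and 4 in the top decile, Sema3f (1177), Sema7a (1051), Sema3b (691) and Sema6d (466). Of 19 WNT ligands 2 were above it, Wnt7a (298) and Wnt7b (136). Shares near those of all genes were those of chemokine ligands and SOX genes. Of 19 SOX genes 7 were above it and 2 in the top decile, Sox10 and Sox4 (1641). Of 33 HOX genes 7 were above it, led by Hoxa5 (229), and of 48 keratins 5 were, led by Krt42 (493, other 23.9).

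Genes of the brightest 1% in no list included the copper-dependent hydroxylase homologue Moxd1 (3493), the TWEAK receptor Tnfrsf12a (3517), the proteoglycan biglycan, Bgn (2945), the angiogenesis inhibitor Serpinf1 (2842), the growth factor-like Ccn2 (2509) and the urea transporter Slc14a1 (2291). Of the 9160 probe sets without a symbol in the annotation 539 were above the background level, the brightest at 15910.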
